A study of Mus musculus with 3 samples.

Results

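The cells described here are 393 mouse ependymal cells from 1 single-cell library that held more RNA molecules of Zfp804b, Npy, Rspo3, Clec3b and Plac9 together than of Col6a5, Nrxn3, Anxa8 and Krt15 together. They made up 59.5% (95% interval 55.6 to 63.2) of the 661 ependymal cells in the library, and 6.06% (5.49 to 6.67) of its 6485 filtered barcodes. A barcode was taken as ependymal when it held at least 5 unique molecular identifiers (UMIs, 1 per captured RNA molecule) of the ciliated-cell genes Foxj1, Ccdc153, Tmem212, Dynlrb2 and Rsph1, and when Ttr, the main transcript of the choroid plexus, was under 2% of its UMIs. Among these cells, membership took at least 1 UMI over the 5 marker genes and more of them than of the opposite set of 4 genes. The 268 other ependymal cells comprised 229 with more UMIs of the opposite set, named the Col6a5/Krt15 side below, 33 with equal UMIs of both sets, and 6 with 0 of both. All intervals are exact 95% intervals that cover counting error alone, since there was 1 library of pooled mice, cells of 1 library are not replicates, and no test across animals was possible.

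The library came from the hippocampus of 5 pooled mice of genotype Aldh1l1CreERT2;Rosa26-LSL-tdTomato. In this line a tamoxifen-dependent Cre driven by the astrocyte gene Aldh1l1 switches on the red reporter tdTomato. The mice had received a Cre-dependent AAV-TIGRi-Hopx, a viral vector against Hopx that also carries EGFP, and were collected 3 weeks after tamoxifen, when sorting enriched cells positive for both reporters. The counts went partly against that sort, since 2972 of the 6485 barcodes held mostly microglial markers. The study also has an anti-Flag and an IgG chromatin sample of primary astrocytes, not analysed here, and it has no single-cell library without the vector, so no comparison with untreated ependymal cells could be made.

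Ependymal cells form the single-layered, multiciliated lining of the ventricles, and their beating cilia move cerebrospinal fluid. They keep regional identity from the part of the neural tube that they line. Patterning transcription factors of the dorsal midline, such as Zic, Lmx and Otx factors, separate roof from wall. The position of the cells described here was not measured. R-spondins, encoded by Rspo genes, are secreted proteins that bind Lgr receptors and the ubiquitin ligases Znrf3 and Rnf43 and so strengthen Wnt signalling, and Wls carries Wnt ligands to the cell surface.

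By ependymal markers outside the gate, the members were like the other ependymal cells, which had passed the same ependymal gate. Of 21 such markers with at least 30 UMIs, 0 differed 2-fold between the members and the other ependymal cells, and their median log2 ratio was -0.05. Likewise 0 of 49 genes of motile cilia and the axoneme and 0 of 14 regulators of multiciliation differed 2-fold, with medians of -0.08 for both lists, against a median of -0.04 over all 11144 genes compared. The members held 2843497 UMIs in all. Their median was 6264 UMIs and 3133 genes per cell, against 5616.5 UMIs and 3019 genes in the other ependymal cells, and their median mitochondrial share was 1.77% against 1.42%. Barcodes called as doublets were 30 (7.63%) of the members and 21 (7.84%) of the others, and were kept. Of the sorted reporters, tdTomato was detected in 6.11% of the members and EGFP in 7.38%. The astrocyte genes of the driver line's target cell were not set apart in the members, with 0 of 9 astrocyte markers at 2-fold.

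Plac9, which encodes a small secreted protein, decided most of the membership. It supplied 5511 of the 7019 marker UMIs in the members (78.5%) and was detected in 392 of the 393 cells, at a pooled level of 1938 UMIs per 1000000 (CPM). The other ependymal cells held Plac9 too, at 786 CPM and in 87.7% of cells. For 104 members Plac9 was the only marker gene detected, while 289 members (73.5%) held Npy, Rspo3 or Clec3b and 62 (15.8%) held all 3. A label that names Npy, Rspo3 and Clec3b therefore fits part of the cells, and they are called the Plac9-side cells here. With Plac9 left out of the sum, 158 of the members (40.2%) still held more marker UMIs than opposite-set UMIs. The plot of marker UMIs against opposite-set UMIs shows 1 spread of cells across the dividing line, and 284 Plac9-side cells (72.3%) held at least 1 UMI of the opposite set.

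**Figure D1:**
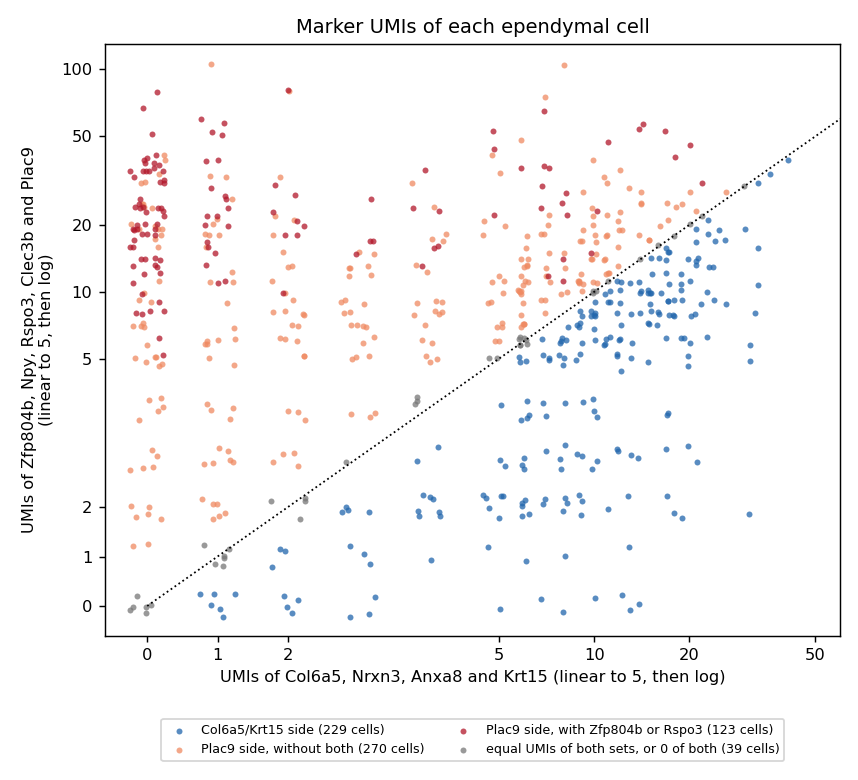
Each point is 1 of the 661 ependymal cells, placed by its UMIs of the 4 opposite-set genes and of the 5 marker genes, with slight random shifts to separate equal values. The Plac9-side cells lie above the dotted line of equal UMIs, and the 123 that hold Zfp804b or Rspo3 (dark red) lie mostly at few opposite-set UMIs.

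The marker genes differed in how sharply they divided the ependymal cells. Because the gate used these values, they are a description. Zfp804b, a zinc-finger protein gene, was found in 76 Plac9-side cells (184 UMIs) and in 1 of the other ependymal cells (1 UMI), or 64.7 and 0.580 CPM. Rspo3 was found in 96 Plac9-side cells (174 UMIs) and in 3 of the others (3 UMIs), or 61.2 and 1.74 CPM. The other pair were less divided. Npy, which encodes neuropeptide Y, was found in 180 Plac9-side cells at 207 CPM and in 64 of the other cells at 70.2 CPM. Clec3b encodes tetranectin, a secreted lectin-like protein that binds plasminogen, and was found in 238 Plac9-side cells at 197 CPM and in 98 of the others at 107 CPM. In a cell type that should lack these genes few cells held them. Among 2972 barcodes with mostly microglial markers, at a median of 6383 UMIs, 0.168% held Zfp804b, 0.202% Rspo3, 0.336% Npy, 0.336% Clec3b and 2.15% Plac9. Outside the ependyma, Rspo3 was high in 10 barcodes with mostly fibroblast and leptomeningeal markers (905 CPM) and Plac9 in 13 with mostly mural markers (1300.4 CPM).

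The gate was also run on 4 of the markers and the fifth then read, although all 5 were listed with these data in view. Leaving out Zfp804b or Rspo3 chose the same 393 cells. Ependymal cells gated without Zfp804b held 111 times its level in the rest (19.8 to 4428), and cells gated without Rspo3 held 35.1 times the Rspo3 level of the rest (11.8 to 172). For Npy the ratio was 2.25 (1.89 to 2.70), for Plac9 1.75 (1.66 to 1.83) and for Clec3b 1.52 (1.296 to 1.78). Within the Plac9 side, Npy was detected in 61 of 76 cells with Zfp804b (80.3%) and in 119 of 317 without it (37.5%), and Rspo3 in 49 of the same 76 (64.5%) and 47 of the 317 (14.8%). Plac9 was detected in 75 of the 76 and in all 317. The cells with Zfp804b were deeper, at a median of 8273 UMIs against 6050, and the part of depth in these shares was not tested.

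Upstream sequences are shown for Npy and for Zic1 and Zic4, a neighbouring pair of transcription factor genes that lead the comparison described next. They are the 250 bases before the start of each gene, on its own strand, from RefSeq on GRCm38.p6, while the counts were made on GRCm39. RefSeq sequence was matched for 7 of 11 genes sought. Npy lies on the plus strand at chr6:49822460-49822709, Zic1 on the minus strand at chr9:91365769-91366018 and Zic4 on the plus strand at chr9:91368722-91368971, so the windows of the divergent Zic1 and Zic4 genes are 2703 bases apart.
Npy: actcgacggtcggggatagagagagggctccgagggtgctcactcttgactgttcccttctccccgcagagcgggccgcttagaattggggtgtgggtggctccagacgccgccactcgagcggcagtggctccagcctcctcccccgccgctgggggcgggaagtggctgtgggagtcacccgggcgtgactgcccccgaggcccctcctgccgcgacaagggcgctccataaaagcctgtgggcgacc
Zic1: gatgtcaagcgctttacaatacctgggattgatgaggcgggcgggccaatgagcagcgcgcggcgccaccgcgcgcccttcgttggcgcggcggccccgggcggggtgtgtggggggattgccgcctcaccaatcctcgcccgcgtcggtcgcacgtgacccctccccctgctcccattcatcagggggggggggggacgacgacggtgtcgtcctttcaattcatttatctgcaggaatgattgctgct
Zic4: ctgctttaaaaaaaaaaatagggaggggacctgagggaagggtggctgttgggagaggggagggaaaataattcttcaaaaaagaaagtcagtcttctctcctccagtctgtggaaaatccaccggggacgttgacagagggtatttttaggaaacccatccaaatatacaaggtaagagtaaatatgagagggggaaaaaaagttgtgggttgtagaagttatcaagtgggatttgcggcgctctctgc
The letters TAATCC, the core that Otx2 binds, were searched on both strands (GGATTA on the other), with matches to be set in capitals. None of the 3 windows holds these letters, nor do those of Zfp804b, Wls and Lmx1a, while at least 1 of the 4 windows of Otx2 itself does. Of 32851 such windows, 2054 (6.25%) hold the letters.

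Outside the gate, Otx2, Zic4, Rspo2 and Zic1 were the higher genes whose intervals lay farthest from 1 in the Plac9-side cells. Genes with at least 30 UMIs over both groups were compared, without the gate genes and Ttr, and a gene was counted when its CPM ratio was at least 2, or at most 0.5, with the interval on that side of 1. Of 11144 genes, 140 were higher (1.26%) and 142 lower (1.27%) in the Plac9-side cells than in the other ependymal cells. The 15 named each way were those whose interval stayed farthest from 1, among genes at 20 CPM or more, detected in 10% or more of cells and with no cell holding over 25% of the UMIs on the higher side. Since the members were chosen from the same cells, these ratios describe the division and are no test of it.

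Otx2, a homeodomain factor of the forebrain midline and choroid plexus, had the farthest interval. It was detected in 95 Plac9-side cells (24.2%, 181 UMIs) and in 2 of the other ependymal cells (0.746%, 2 UMIs), a CPM ratio of 54.8 (14.96 to 456). Zic4 was likewise detected in 95 Plac9-side cells (153 UMIs) and in 2 others (2 UMIs), a ratio of 46.4 (12.6 to 386). Its neighbour Zic1, also a zinc-finger factor of the dorsal midline, was found in 86 Plac9-side cells and 6 others, at 44.7 and 3.48 CPM, a ratio of 12.8 (5.73 to 35.6). Lmx1a, a LIM-homeodomain factor of the roof plate, was found in 53 Plac9-side cells and 3 others, a ratio of 11.8 (4.44 to 44.5). The list of dorsal telencephalic patterning genes had 4 higher genes, among them Lmx1a, Zic1 and Zic4, and 1 lower (Nr2f1) of 17 compared, with a median log2 ratio of 0.38. The ventral telencephalic list had 0 of 7 at 2-fold and a median of -0.35. Of the diencephalic and tanycyte list, Otx2 alone of 10 genes was counted. No gene of the hindbrain and spinal list had the 30 UMIs needed, and the list summed to 4.57 CPM in the Plac9-side cells.

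At the level of single cells, more than 1 of these genes was detected in part of the Plac9-side cells. The 5 genes counted here were taken from the named higher genes, so their contrast with the other cells describes that choice and is no test. At least 2 of Otx2, Zic1, Zic4, Lmx1a and Rspo2 were detected in 117 Plac9-side cells (29.8%, 25.3 to 34.6) and in 1 of the 268 other ependymal cells (0.373%, 0.00945 to 2.06). At least 1 was detected in 173 Plac9-side cells (44.0%) and in 12 others (4.48%). The rest of the Plac9-side cells held none of the 5 genes at this depth. Whether the share with at least 2 exceeds what the separate detection rates of the genes would give was not tested. Plac9-side cells with Otx2 had a median of 8231 UMIs and those without 5907.5, and the part of depth was not tested. Among the microglia-marker barcodes, 0.101% held Otx2, 0.370% Zic1, 0.101% Zic4, 0.101% Lmx1a and 0.0673% Rspo2.

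Otx2 is also a choroid plexus gene, so choroid transcripts were counted beside it. Among 672 barcodes with choroid plexus markers, Otx2 came to 1.10 UMIs per 1000 Ttr UMIs, and in the Plac9-side cells to 271. In the other ependymal cells it came to 5.32, from 2 Otx2 UMIs. The choroid barcodes were chosen with Ttr at 2% or more of UMIs and the ependymal cells with less, so the gates partly set this contrast. The choroid genes Kcne2 and Slc4a5 had 0 UMIs in the Plac9-side cells, against 2040 and 1188 in the choroid barcodes, and Kl had 3 against 9931. The other ependymal cells were alike, with 0 UMIs of Kcne2, 1 of Slc4a5 and 5 of Kl. Folr1, a folate receptor gene of the same list, had 561 UMIs in the Plac9-side cells (197 CPM), 358 in the other ependymal cells (208 CPM) and 8821 in the choroid barcodes. The median share of Ttr was 0.0183% in Plac9-side cells with Otx2 and 0.0181% in those without. Of the choroid list, 2 of 6 genes compared were higher in the Plac9-side cells, Otx2 and Clic6, a chloride channel gene (18.99 against 6.96 CPM).

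Of the genes of Wnt ligands and their export, Wls and Rspo2 were higher. Wls was at 458 CPM in the Plac9-side cells and 113 in the others, a ratio of 4.05 (3.48 to 4.73), and was detected in 67.7% and 46.3% of cells. Rspo2, which encodes another R-spondin, was found in 48 Plac9-side cells (78 UMIs) and in 1 other (1 UMI), a ratio of 47.3 (8.24 to 1891). These were the 2 higher genes among 7 compared of the Wnt ligands and R-spondins, with 0 lower and a list median of -0.15. On the receiving side, 0 of 14 Wnt and R-spondin receptor genes differed 2-fold (median 0.00). Lgr4 was at 55.6 CPM in the Plac9-side cells and 60.9 in the others, and Znrf3 at 63.0 and 59.2. Lgr5 had 1 and 0 UMIs, Lgr6 10 and 4, and Rnf43 13 and 4. Of 20 targets, mediators and inhibitors, Sfrp5, a secreted Wnt antagonist (11.6 against 4.64 CPM), and Ccnd1, cyclin D1 (17.2 against 8.13 CPM), were higher, and Nkd2, an inhibitor that binds Dishevelled, was lower (22.5 against 50.5 CPM).

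The other named higher genes have varied roles. Reln, the secreted glycoprotein reelin, was at 42.6 against 6.96 CPM, a ratio of 6.11 (3.37 to 12.2), and its receptor gene Lrp8 was at 165 against 47.0 CPM, a ratio of 3.51 (2.77 to 4.50). The related low-density lipoprotein receptor gene Lrp1b had a ratio of 7.68 (4.92 to 12.6), which was 51.8 (17.5 to 253) without called doublets and 24.98 (11.3 to 68.7) without cells over 1% RNA of other cells, since its 21 UMIs in the other ependymal cells fell to 3 and 6. Adhesion and junction genes were the cadherin Cdh26, with a ratio of 14.7 (5.56 to 55.0), the tight-junction channel Cldn2, with 9.54 (3.55 to 36.1), and Sdk1, with 6.14 (2.97 to 14.7). Tfr2, transferrin receptor 2, had a ratio of 13.5, Ogn, a small matrix proteoglycan, 7.98, and Rbp2, a retinol-binding protein, 5.45. Within the lists, Igfbp2, which binds insulin-like growth factors, was at 208 against 77.2 CPM, and Fabp7, a fatty acid-binding protein of radial glia, at 31.7 against 11.03.

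**Figure D2:**
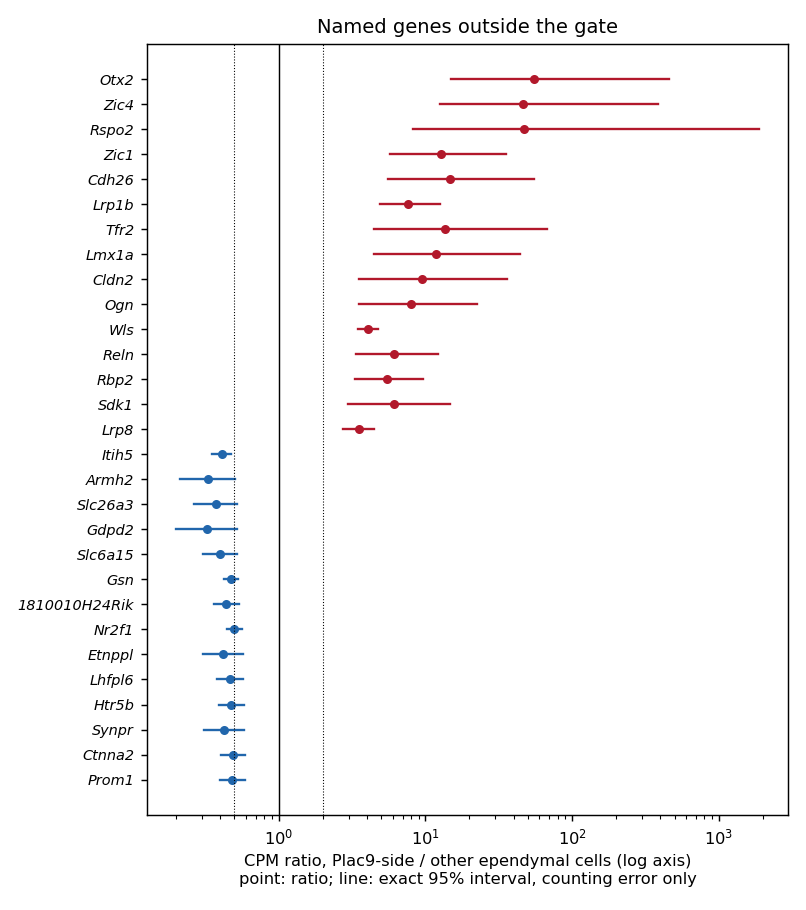
The CPM ratio of the Plac9-side to the other ependymal cells is shown on a log axis for named genes in each direction, with exact 95% intervals for counting error. The higher genes reach a ratio of 54.8 for Otx2, while the lower genes lie between 0.325 for Gdpd2 and 0.500 for Nr2f1.

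The lower genes differed by smaller ratios and were often detected on both sides. Itih5, which encodes a hyaluronan-binding secreted protein, was at 109.7 CPM in the Plac9-side cells and 268 in the others, a ratio of 0.409 (0.353 to 0.473). Nr2f1, a nuclear receptor that is graded across the developing cortex, was at 188 and 377 CPM, a ratio of 0.500 (0.445 to 0.561), and was detected in 58.8% and 77.2% of cells. Gsn, the actin-severing protein gelsolin, had a ratio of 0.472 (0.422 to 0.527). Prom1, the membrane protein prominin-1 that also marks neural stem cells, had a ratio of 0.484 (0.396 to 0.592). Transporters were Slc26a3, an anion exchanger, at 0.373 (0.267 to 0.519) and Slc6a15, a neutral amino acid transporter, at 0.400 (0.304 to 0.523). Also lower were Armh2, Gdpd2, 1810010H24Rik, Etnppl, Lhfpl6, Htr5b, Synpr and Ctnna2, with ratios of 0.325 to 0.488.

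The sizes of these ratios depended on how the cells were gated. With the gates applied to cells thinned to 3000 UMIs, which also leaves out shallower cells, all 15 named higher genes still met the count rule, though at other sizes (Otx2 16.1, 7.66 to 40.7, and Zic4 9.15, 4.83 to 19.5), while 4 of the 15 named lower genes did, among them Gdpd2, Gsn and Htr5b. After thinning, Armh2 moved from a ratio of 0.331 to 0.539 and Gsn from 0.472 to 0.489, and the cause of such moves was not tested. Itih5 was then at a ratio of 0.514 (0.442 to 0.598) and Nr2f1 at 0.604 (0.536 to 0.679). Without Plac9 in the gate, which left 158 members, the ratio was 8.93 (6.27 to 12.96) for Otx2, 4.96 (3.53 to 7.05) for Zic4, 6.44 for Zic1, 4.64 for Tfr2 and 26.5 for Rspo2, and all 15 named higher and 13 of the 15 named lower genes met the rule.

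Against the Col6a5/Krt15 side alone, 164 of 11049 genes were higher (1.48%) and 158 lower (1.43%). The values were close to those above, since 229 of the 268 cells are shared: Otx2 had a ratio of 48.1 (13.1 to 399.8), Wls 3.95 (3.37 to 4.66) and Itih5 0.393 (0.339 to 0.457).

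Levels on the Plac9 side differed with the distance from the dividing line. Otx2 had 0 UMIs in the 33 cells with equal UMIs of both sets, just outside the gate, which allows up to 15.1 CPM. In the 68 cells just inside the gate, with a margin of 1 to 2 UMIs, it was at 2.65 CPM (1 UMI), which cannot be told apart from that. In the 95 cells with a margin of 20 or more it was at 134 CPM. Wls was at 95.9, 179.9 and 744 CPM in these 3 sets. Nr2f1 was at 323, 251 and 128 CPM, and Itih5 at 192, 179.9 and 61.7. On the other side of the line the order was not the same for all genes: Wls was at 108 CPM in the 187 cells nearer to it and 143 in the 42 farther from it, Nr2f1 at 396 and 357, and Itih5 at 265 and 326. Zfp804b and Rspo3 are gate genes whose UMIs count toward the margin, so their levels by margin are partly set by it. They had 0 UMIs both in the cells with equal UMIs and in those with a margin of 1 to 2. The cells with the widest margin were also the deepest, at a median of 8496 UMIs against 4986.5 just inside the line.

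**Figure D3:**
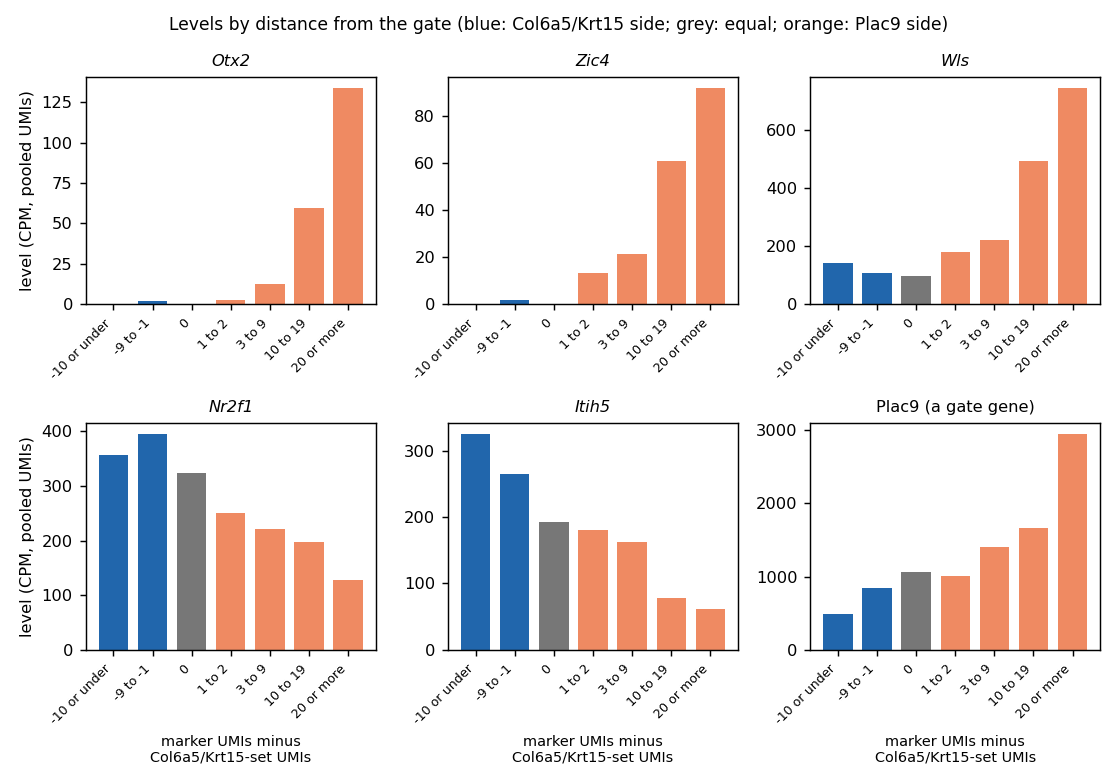
Pooled CPM of 6 genes is shown by the difference between marker UMIs and opposite-set UMIs per cell, in 7 bins of 33 to 187 cells. Otx2 reaches 134 CPM in the bin of 20 or more and 2.65 (1 UMI) just inside the line. Nr2f1 and Itih5 are higher on the Col6a5/Krt15 side, and Plac9, a gate gene, is shown for reference.

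Neuropeptide and receptor genes around Npy were sparse. The neuropeptide and Npy receptor list had 5 of 28 genes with enough UMIs, with 0 at 2-fold. Of the receptors, Npy2r was at 15.5 CPM in the Plac9-side cells and 15.1 in the others, Npy1r had 5 and 3 UMIs, and Npy4r and Npy5r had 0 in both, which allows up to 1.06 and 1.74 CPM. Among processing genes, Pcsk2, a prohormone convertase, was higher (31.7 against 12.2 CPM, ratio 2.60, 1.601 to 4.40), and was the 1 gene at 2-fold of 14. Cpe, which trims the cleaved peptides, was at 929.8 against 723 CPM, Pam, which amidates them, at 55.2 against 47.6, and Pcsk1 had 1 and 2 UMIs. For Clec3b's binding partner, Plg had 0 UMIs in both groups, and 0 of 18 genes of the plasminogen system and protease inhibitors differed 2-fold.

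The remaining lists held few genes at 2-fold. The counts of higher and lower genes were 1 and 2 of 28 for extracellular matrix (Reln higher, Fn1 and Ncan lower), 2 and 0 of 7 for the insulin-like growth factor system, and 1 and 0 of 25 for axon guidance (Epha7). They were 2 and 1 of 23 for the BMP and TGF-beta pathway, 1 and 0 of 18 for FGF and retinoic acid, 0 and 1 of 26 for transport (Car2), and 1 and 1 of 23 for junctions (Cldn2 higher, Ntm lower). Filaments and annexins had 0 of 19, neural stem cell genes 1 and 1 of 19 (Fabp7 higher, Prom1 lower), interferon response 0 of 30, reactive genes 1 and 0 of 19 (Ccl5), immediate early genes 0 of 22, and p53 and stress genes 1 and 0 of 23 (Cdkn1a). Markers of other cell types were measured beside these. Endothelial markers had 0 higher and 4 lower of 9 (summed 1473 against 1801 CPM), border macrophage markers 0 and 3 of 3, oligodendrocyte markers 0 and 1 of 4 (228 against 432 CPM), and microglial markers 0 of 10 (1608 against 1456 CPM). Of fibroblast and leptomeningeal markers, 1 of 3 was higher, which is Ogn, named above, while Dcn had 2 UMIs in the Plac9-side cells and Lum, Col3a1 and Pdgfra had 0. Of lymphocyte markers, 1 of 2 was higher, Cd79a, with 31 UMIs against 0 and 1 cell holding 32.3% of them. Without the 19 Plac9-side and 18 other cells with over 1% RNA of other cells, 15 of the 15 higher and 14 of the 15 lower named genes met the rule. The part of these markers in the counts was not otherwise tested.

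Hopx and the vector reporter differed less than 2-fold. Hopx, the gene that the vector targets, was at 148 CPM (134 to 163) in the Plac9-side cells and 109.7 (94.6 to 126) in the others, a ratio of 1.35 (1.13 to 1.61). EGFP was found in 29 of the Plac9-side cells (7.38%, 5.00 to 10.4) and 18 of the others (6.72%, 4.03 to 10.4). With cells thinned to 3000 UMIs the shares were 3.89% and 3.81%.

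The Plac9 side was not uniform, and Otx2, Zic1, Lmx1a, Rspo2 and Wls were at higher levels in its cells with Zfp804b or Rspo3. This division was chosen after the values were seen. The 123 cells with Zfp804b or Rspo3 were deeper than the 270 without, at a median of 7784 against 5783 UMIs. At least 2 of the 5 genes Otx2, Zic1, Zic4, Lmx1a and Rspo2 were found in 79 of the 123 (64.2%, 55.1 to 72.7) and in 38 of the 270 (14.1%, 10.2 to 18.8). Of 10081 genes compared between the parts, 177 were higher in the cells with Zfp804b or Rspo3 (1.76%) and 455 lower (4.51%). Otx2 was at 108 CPM against 36.5, Zic1 at 75.4 against 25.6, Zic4 at 73.5 against 41.6, Lmx1a at 57.0 against 9.11 and Rspo2 at 62.5 against 5.70. The ratio of Zic4 was 1.77 (1.27 to 2.46), under the 2-fold limit. The dorsal telencephalic list as a whole had 3 higher and 2 lower of 17, with a median log2 ratio of 0.07. Wls was at 857 CPM against 211, a ratio of 4.05 (3.59 to 4.59), and was detected in 120 of the 123 cells. Npy, a gate gene, was at 348 CPM against 120.2.

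**Figure D4:**
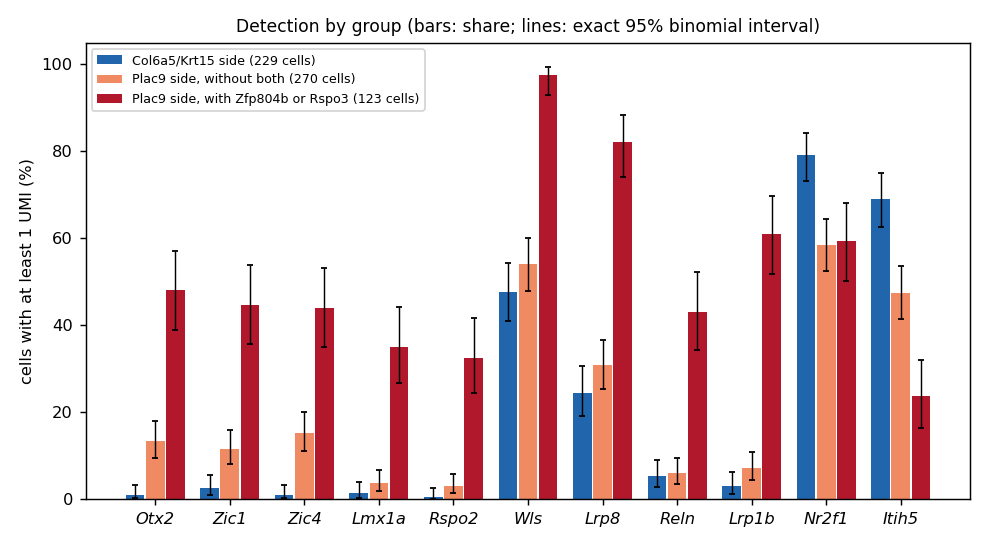
Bars give the share of cells with at least 1 UMI of each gene in the Col6a5/Krt15 side, the Plac9-side cells without Zfp804b and Rspo3, and those with either, and lines give exact 95% intervals. For Otx2 the shares are 0.873%, 13.3% and 48.0%, and for Nr2f1 they are 79.0%, 58.5% and 59.3%.

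Of the other genes named by the same rule between these parts, Lrp1b was at 211 CPM in the cells with Zfp804b or Rspo3 and 20.5 in those without, Reln at 90.1 and 13.1, Lrp8 at 302 and 79.7, and Adgrl3, an adhesion receptor, at 229 and 47.8. The junction and adhesion list had 4 higher and 4 lower of 21 (median -0.13), and axon guidance 3 and 4 of 19. Slco1c1, a thyroid hormone transporter, was at 139 and 31.9 CPM. Lower were 2 factors of the telencephalon, Meis2 (44.1 against 249 CPM) and Lhx2 (18.4 against 64.9). Hopx was at 219.7 CPM against 103, a ratio of 2.13 (1.75 to 2.60), and EGFP at 2.76 against 18.8, with 3 and 33 UMIs. At 3000 UMIs per cell EGFP was detected in 0 and 5.83% of the cells that were deep enough, Otx2 in 25.8% and 8.75%, and Wls in 90.0% and 35.4%.

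Interferon and inflammatory genes were lower in the cells with Zfp804b or Rspo3 than in the rest of the Plac9 side. Of 30 interferon response genes, 0 were higher and 18 lower, and the median log2 ratio was -1.13, against -0.07 over all genes compared. Ifit2, an interferon-induced antiviral gene, was at 14.7 against 117 CPM, and Rsad2, the antiviral enzyme viperin, at 91.9 against 351, with 1 cell holding 27.6% of the UMIs on the higher side. Tap1, the peptide transporter of antigen presentation, was at 36.8 against 133 CPM, and Ifi44, an interferon-induced gene, at 72.6 against 225. Of 18 reactive genes, 9 were lower, among them Cxcl10 (139 against 698 CPM) and Ccl5 (17.5 against 245), both chemokines, and 1 cell held 24.8% of the Cxcl10 UMIs of the cells without the pair. Vcam1, an adhesion molecule, was at 7.35 against 124 CPM. Immediate early genes went the other way, with a list median of 0.57 and 1 gene higher and 0 lower of 22 (per cell a median of 1.29% against 0.411% of UMIs), but with a median of 0.07 and 2 lower after thinning. The median mitochondrial share was 2.06% against 1.57%, and the part of both in the interferon difference was not tested. Per cell, the interferon list took a median of 0.541% of UMIs (quartiles 0.346 and 1.01) in the cells with Zfp804b or Rspo3, 1.05% (0.562 and 1.62) in those without, and 0.663% (0.369 and 1.09) on the Col6a5/Krt15 side.

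Microglial markers moved with this difference. Of 10 compared, 0 were higher and 5 lower, and their sum was 1089 CPM against 1929.7. Without the cells that held over 1% RNA of other cells, 117 and 257 cells remained. That share includes the microglial markers, so the filter itself lowers their counts. In the remaining cells 0 of 5 microglial markers compared were lower, with a median log2 ratio of -0.38. Of 30 interferon genes, 20 were lower, with a median of -1.18. With Zfp804b and Rspo3 read from cells thinned to 3000 UMIs, 80 against 280 cells, 19 of 30 interferon genes were lower, with a median of -1.12 (log2), and 8 of 10 microglial markers were lower, with a median of -1.78. Against the Col6a5/Krt15 side, the cells with Zfp804b or Rspo3 had 188 of 9857 genes higher (1.91%) and 485 lower (4.92%), among them 5 of 30 interferon genes lower (median -0.54) and 0 of 9 microglial markers, with a median of 0.01. The part of microglial RNA in the interferon difference was not tested. Of 49 cilia genes, 0 differed 2-fold between the 2 parts of the Plac9 side.

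**Figure D5:**
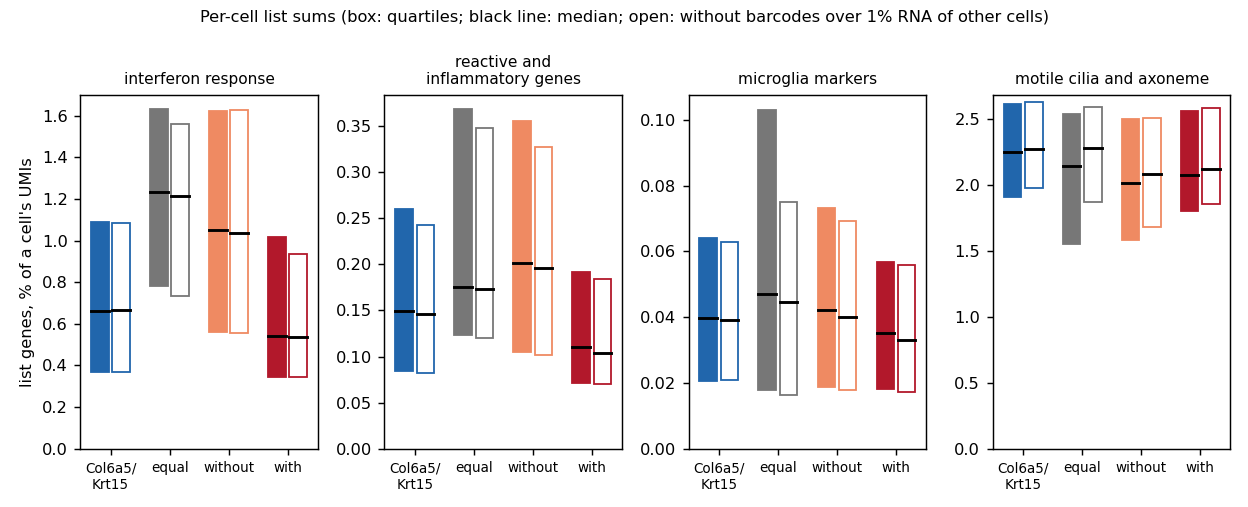
Boxes give the quartiles and black lines the median of the share of a cell's UMIs taken by 4 gene lists, for the Col6a5/Krt15 side, cells with equal UMIs, and Plac9-side cells without and with Zfp804b or Rspo3, with all cells (filled) and without barcodes over 1% RNA of other cells (open). The interferon median is 0.541% in the cells with Zfp804b or Rspo3 and 1.05% in those without.

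The 270 Plac9-side cells without Zfp804b and Rspo3 still differed from the Col6a5/Krt15 side, with 136 of 10522 genes higher (1.29%) and 117 lower (1.11%). Zic4 was at 41.6 against 1.32 CPM and Otx2 at 36.5 against 1.32, with ratios of 31.4 (8.38 to 264) and 27.5 (7.31 to 232). Zic1 was at 25.6 against 3.97 CPM, a ratio of 6.45 (2.74 to 18.5), while Wls was at 211 against 116. The named higher genes also held the chemokines Ccl3, Ccl4, Ccl5 and Cxcl10 and the microglial markers C1qa and Ctss, and 5 of 10 microglial markers were higher (summed 1929.7 against 1070.4 CPM). Of the chemokine UMIs in the 270 cells, a single cell held 24.8% for Ccl4, 24.8% for Cxcl10, 21.9% for Ccl5 and 20.8% for Ccl3. Ccl4 was detected in 26.3% of the 270 cells and 26.2% of the Col6a5/Krt15 side, and Ccl3 in 13.3% and 13.97%. Ccl5 was detected in 12.2% and 6.55%, and Cxcl10 in 24.1% and 17.9%. The part of the microglial markers in the chemokine values was not tested.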

How the data were processed

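RNA of single cells was measured in 1 droplet library (10x Genomics) from the hippocampi of 5 pooled mice, per the series' design text. The deposited table holds UMI counts of 21750 features in 6672 barcodes. The submitters' processing notes name Cell Ranger 8.0.1 and the build GRCm39. Barcodes with at least 500 genes and at most 15% mitochondrial UMIs were kept, which left 6485. No barcode maps to a mouse. Doublets were called with Scrublet in scanpy 1.11.5 (expected rate 0.05), which marked 261 barcodes (4.02%). They were kept, and left out as an alternative.

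Each group's UMIs were pooled and scaled to 1000000 (CPM). Ratios carry exact conditional binomial 95% intervals, levels exact Poisson and shares exact Clopper-Pearson intervals, and all cover counting error only (scipy 1.17.1). A count of 0 is given an upper limit of 3 counts. Log2 ratios add 0.5 UMI to each sum. Genes were compared at 30 UMIs or more, without the 14 gate genes and Ttr, and counted at 2-fold with the interval on that side of 1. The computation was tested on simulated data with known ratios. The 15 genes named each way had at least 20 CPM and 10% of cells on the higher side, with no cell over 25% of its UMIs, and lie farthest from 1 by the nearer interval bound. Of each list, at most 4 genes at 2-fold were named each way in the same order, along with the gate genes, Hopx, the reporters, Npy receptors and processing genes, R-spondin receptors and Plg. Shares at equal depth come from cells thinned to 3000 UMIs.

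The members and the gene lists were chosen with earlier results of these data known, and 704 of 710 list genes matched. The division by Zfp804b and Rspo3, with its examples, and the limit of 1% on RNA of other cells were chosen after the data were seen. RefSeq lists more than 1 copy of Plac9 while the features hold 1, so reads that both copies share may be counted incompletely. A 3' count does not compare levels between genes. Results for some genes are not reported here.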

Additional observations from a re-analysis of the deposited data

How the results depend on the processing

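The share of ependymal cells on the Plac9 side stayed near 59.5% under the stricter cell filter, without doublets, with Ttr under 0.5%, with higher UMI minimums, after thinning, without cells over 1% RNA of other cells, and with Zfp804b, Npy, Rspo3 or Clec3b left out of the gate (56.6% to 61.2%), and was 23.9% without Plac9. Counts of genes at 2-fold stayed within 1.5 times the main counts except in 3 settings. At 100 UMIs or more, 42 were higher and 34 lower than in the other ependymal cells, and 49 and 36 against the Col6a5/Krt15 side, since fewer genes were compared. Against the 6 cells with 0 UMIs of both sets, 62 were higher and 273 lower, of which 3 and 1 were shared with the main comparison. Without Plac9 in the gate, 538 were lower, 73 of them shared; the cause was not tested. After thinning, 91 of 139 higher genes and 35 of 188 lower genes were shared. Medians of 24 lists kept within their spread except for 3 lists without Plac9 (insulin-like growth factor system 0.22, interferon -0.52, reactive genes -0.97) and 11 against the 6 cells. No comparison could be repeated in another library, and levels of genes with few UMIs are limited by depth. No paired analysis was possible because there was 1 library.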

Other observations

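Within the Plac9 side, Rspo2 was found in cells that also held Npy. Of 48 cells with Rspo2, Npy was detected in 46 (95.8%) and Rspo3 in 33 (68.8%), against 38.8% and 18.3% of the 345 cells without Rspo2. The cells with Rspo2 were deeper, at a median of 9005.5 against 6053 UMIs, and the part of depth was not tested. Of 53 cells with Lmx1a, Zfp804b was detected in 54.7%, against 13.8% of the 340 without it, at medians of 8536 and 6017 UMIs.

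The 33 ependymal cells with equal UMIs of both sets had 0 cells with any of Otx2, Zic1, Zic4, Lmx1a and Rspo2, which allows a share of up to 9.09%. Their interferon list took a median of 1.23% of UMIs.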
